A study of Homo sapiens with 16 samples.

Results

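The promoters described here are those with a deep trough of nucleosomal fragments at the transcription start site (TSS) in untreated cells. They were chosen by their values in the untreated light digest. For each promoter the depth, D, is log2 of the mean signal from -100 to +40 bp over the mean signal of the whole 2 kb region, with 0.1 rpm added to both and bins without a value left out, and a member has a mean of 0.5 rpm or more over the region and a D below -2. Of 21857 promoters, 20059 reached the mean, 71 of these had no value in the window of the rule, and 8213 of the 19988 that remained, 41.1%, were members. They carry 8192 gene symbols, and 1162 of them (14.1%) share part of their 2 kb with another member. The members and the evaluated promoters that were not members (11775) are compared throughout.

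Active promoters commonly hold a nucleosome-free region, a stretch upstream of the TSS where transcription factors and the transcription machinery bind and which remodelers and the DNA sequence keep clear of nucleosomes. It is bordered by the -1 nucleosome upstream and the +1 nucleosome downstream. Micrococcal nuclease (MNase) digests linker DNA, so that protected fragments of nucleosome size mark where nucleosomes stood, and a nucleosome released by light digestion and lost under heavy digestion is called sensitive.

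The fragments come from GM12878, an Epstein-Barr virus-transformed B-lymphoblastoid line of a single donor, grown untreated or given heat-killed Salmonella typhimurium (HKST) and harvested after 20, 40 and 60 min. Nuclei of each time point were digested with 20 U (light) or 200 U (heavy) of MNase in 2 replicates, 16 samples in 8 groups, and promoter fragments were enriched by sequence capture. The deposited tables pool the replicates of a group, so there is no spread between replicates, no test between time points was possible, and a difference between 2 tables cannot be told apart from a difference in digestion between tubes. The signal is given in rpm, fragment centers in a 60 bp window scaled by the authors to the same total in every table. The light tables rest on 9426048 to 10459048 fragments and the heavy ones on 3272155 to 7038140, 3 of them end early (20 min light after 2801 promoters, 20 min heavy after 6779, untreated heavy after 16260), and the median member had 329 fragments over 2 kb in the untreated light table and 165 in the untreated heavy table.

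The members fall into kinds that are best seen in their sequences, so the 100 bp upstream of the TSS of 6 members are given, read from GRCh37 (the same coordinates as hg19) in the direction of transcription. Capitals mark matches, on either strand, to short motifs looked for in the window: CCAAT (the CCAAT box, bound by NF-Y), GGGCGG (the GC box, bound by Sp1 family factors), CCGGAAG (the core of ETS factor sites) and TGACGTCA (the cAMP response element). The promoter of PTPRU, a receptor tyrosine phosphatase (chr1:29562928-29563027, plus strand), stands for GC-rich members. RPL41, a ribosomal protein (chr12:56510274-56510373, plus strand), and SNRPA, a protein of the U1 snRNP (chr19:41256659-41256758, plus strand), stand for housekeeping members of GC content below 65%. ZNF586, a zinc finger protein (chr19:58280920-58281019, plus strand), stands for the zinc finger members of that GC content. HLA-DPB1, a class II antigen-presenting chain (chr6:33043603-33043702, plus strand), and FOS, an immediate early transcription factor (chr14:75745381-75745480, plus strand), stand for genes of the B cell and its response to bacteria.
PTPRU: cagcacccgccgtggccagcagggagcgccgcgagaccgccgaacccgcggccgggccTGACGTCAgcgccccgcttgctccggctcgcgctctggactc
RPL41: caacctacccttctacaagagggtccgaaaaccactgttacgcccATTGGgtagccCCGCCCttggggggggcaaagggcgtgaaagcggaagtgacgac
SNRPA: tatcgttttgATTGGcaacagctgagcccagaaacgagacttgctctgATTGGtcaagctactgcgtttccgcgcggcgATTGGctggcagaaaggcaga
ZNF586: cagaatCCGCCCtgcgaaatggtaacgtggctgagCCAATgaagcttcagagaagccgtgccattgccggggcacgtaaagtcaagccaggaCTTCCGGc
HLA-DPB1: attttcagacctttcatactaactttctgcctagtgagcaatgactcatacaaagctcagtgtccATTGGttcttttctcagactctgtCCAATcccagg
FOS: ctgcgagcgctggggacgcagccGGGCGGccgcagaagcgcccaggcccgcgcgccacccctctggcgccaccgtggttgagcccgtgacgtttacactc

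In these windows SNRPA holds 3 CCAAT boxes and no other motif searched, RPL41 a CCAAT box and a GC box, and ZNF586 a GC box, a CCAAT box and an ETS core next to the TSS. HLA-DPB1 holds 2 CCAAT boxes. A match is a string of letters and not a measured binding site.

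In the untreated light table, which chose them, the members had a median D of -2.99 (quartiles -3.43 and -2.59, lowest -5.11), against -1.5 over all evaluated promoters. No fragment center was recorded in the window of the rule at 2776 members (33.8%). D has a floor that depends on the signal around it: with no fragment in the window it is -2.58 at a regional mean of 0.5 rpm and -3.46 at 1 rpm. The members nearest the cut were RMDN1 and PLEKHM3, and ARF3 and LINC00884 lay just outside, all with a D of -2.0.

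The trough was found again in every table that the rule did not use. Among members, D was below -2 at 88.7% (1002 of 1130) in the 20 min light table, where 43.3% of evaluated promoters were, at 86.1% in the 40 min light table (background 38.8%) and at 87.4% in the 60 min light table (background 40.2%). In the heavy digest the share was 85.1% (5859 of 6887) in untreated cells (background 45.1%), 89.0% at 20 min (background 48.8%), 85.5% at 40 min (background 42.8%) and 89.1% at 60 min (background 43.3%). No fragment was recorded in the window at 44.4% of members in the untreated heavy table and at 55.4%, 56.1% and 45.4% in the 20, 40 and 60 min heavy tables, which rest on 5117314, 4121400, 3272155 and 7038140 fragments. The share was not lower in the deepest of them, 60 min heavy, than in untreated heavy.

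D was below -2 in all 5 of the untreated heavy, 40 min and 60 min tables at 4679 of 6887 members (67.9%), at 31.7% of all promoters evaluated there, and at 95 of 8183 promoters that were not members (1.16%). The median D of members was -2.93 in the 60 min light table and -3.02 in the untreated heavy table. When the same rule was applied to the 40 min light table it chose 7849 promoters, of which 7014 were members (89.4% of those chosen and 85.4% of the members), and their median D back in the untreated light table was -3.01. Either light table thus found largely the same promoters.

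The sequence of the members set them apart. Over the 290 bp around the TSS (-170 to +119 bp) their median GC content was 71.4%, against 55.9% for non-members, and their median observed over expected CpG ratio was 0.89 against 0.41. The share of promoters that were members rose with GC content at every step, from 7.95% below 45% GC, 9.71% from 45 to 55%, 21.4% from 55 to 60% and 33.3% from 60 to 65%, to 50.1% from 65 to 70%, 75.8% from 70 to 75%, 96.4% from 75 to 80% and 99.9% at 80% or more. At the GC-rich end nearly every promoter is therefore a member, and the rule no longer separates promoters from each other.

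The same held away from the TSS. Windows of 150 bp centered 800 bp up- or downstream of the TSS, whose surrounding 290 bp had a GC content of 75% or more (464 windows), had a median depth of -2.88 in the untreated light table and -2.61 in the untreated heavy table, and 87.3% and 71.1% of them lay below -2. Distal windows of GC content below 65% (34060) had a median depth of 0.37 in the untreated light table, and 6.14% of them lay below -2. The signal of all classes of promoter is high near 800 bp, and windows centered 500 bp from the TSS gave like values: from 75 to 80% GC their median depth was -2.80 upstream (316 windows) and -2.87 downstream (737 windows) in the untreated light table. For members the median D at the TSS differed from the distal depth of the same GC class by -0.36 (light) and -0.74 (heavy) at 75% GC or more, and by -3.07 and -2.87 below 65%. Members were chosen for a low light value and distal windows were not, so the light difference below 65% is built into the choice. Over all evaluated promoters below 65% GC the median D at the TSS was -0.53 (light) and -0.66 (heavy), beside distal medians of 0.37 and 0.16. At 75% GC or more it was -3.22 and -3.33, beside -2.88 and -2.61. Low signal thus accompanied a GC content of 75% or more in the windows measured at 500 and 800 bp as well as at the TSS, and in that class the absence of nucleosomes and a low recovery of GC-rich fragments in digestion, amplification or capture cannot be told apart. For these members the data do not bear out the name nucleosome-free region, and they are called GC-rich members below.

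**Figure D1:**
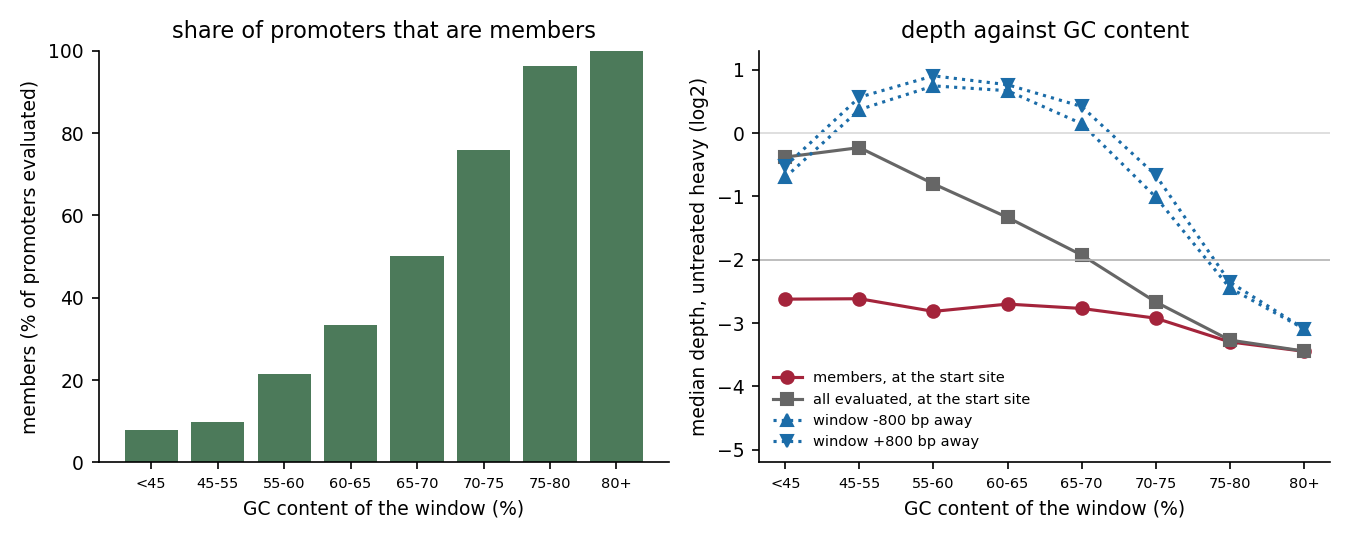
Left, the share of evaluated promoters that are members in 8 bins of GC content of the 290 bp around the TSS. Right, the median depth (log2) in the untreated heavy table in the same bins for members and for all evaluated promoters at the TSS, and for windows 800 bp up- and downstream by their own GC content, with a horizontal line at -2. The share rises from 7.95% to 99.9%, and the distal windows fall below -2 only from 75% GC.

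The members were therefore described in 3 classes, chosen after the data were seen: 2119 of GC content below 65%, 3528 of 65 to 75% and 2566 of 75% or more. Their median D in the 60 min light table was -2.47, -2.89 and -3.23, and in the untreated heavy table -2.71, -2.87 and -3.35. D was below -2 in all 5 of the untreated heavy, 40 min and 60 min tables at 47.6% (816 of 1716), 63.1% (1892 of 3000) and 90.8% (1971 of 2171) of these classes.

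The classes also differed in what surrounds the trough. In the 60 min light table, members of GC content below 65% had an average signal, smoothed over 3 bins, of 0.19 rpm at the lowest point, between a -1 peak of 2.09 rpm at -200 bp and a +1 peak of 2.37 rpm at 150 bp. The trough was 230 bp wide between the points where the average fell below 0.5 times each flanking peak (-140 to 90 bp). The peaks lay 350 bp apart, and further peaks followed on each side. Non-members of the same GC content had a -1 peak of 1.37 rpm at -190 bp and a lowest value of 1.08 rpm at -90 bp, so that hardly any trough remained in their average.

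Members of 65 to 75% GC had the -1 peak at -210 bp (1.5 rpm) and a lower +1 peak at 150 bp (0.91 rpm). GC-rich members had no peak on either side: their average rose steadily away from the TSS, to 0.88 rpm at -350 bp and 0.33 rpm at 300 bp, the ends of the range searched. In the untreated heavy table the members below 65% GC kept the +1 peak at 2.00 rpm, and their -1 peak was 1.17 rpm at -210 bp, where the untreated light table had 1.85 rpm at -200 bp. The -1 side thus stood out in the light digest more than the +1 side, which is taken up below with the sensitivity.

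**Figure D2:**
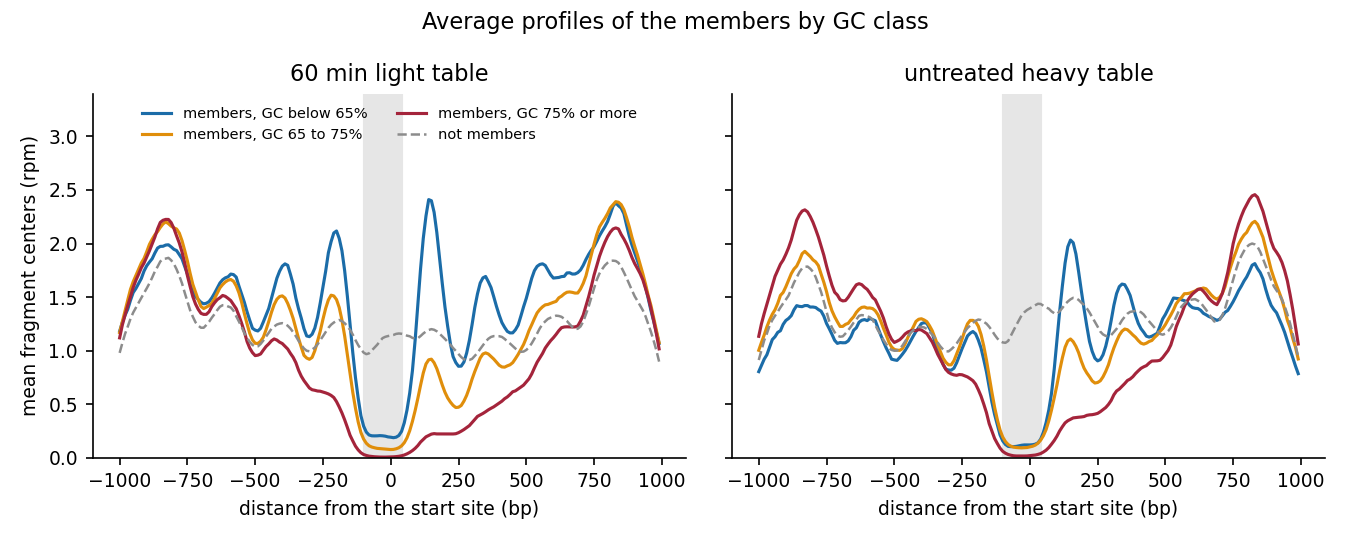
Mean signal (rpm) every 10 bp against the distance from the TSS in the 60 min light and untreated heavy tables, for members in 3 GC classes and for all non-members, with the window of the rule shaded. Members below 65% GC reach 2.09 rpm (-1) and 2.37 rpm (+1) in the light table beside a trough of 0.19 rpm, and GC-rich members have no flanking peaks.

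At 1410 members (17.2%) not a single fragment was recorded between -100 and +40 bp in any of the 5 complete tables. The untreated light table is 1 of these, and an evaluated promoter with no fragment there is a member by the rule. No non-member could therefore be counted, and the 1410 are all such promoters among the 19988 evaluated. The quartiles of their GC content were 77.2% and 82.1%, and 1219 of them (86.5%) were GC-rich, which is 47.5% of that class. Below 65% GC 59 of 2119 members (2.78%) had no fragment, and in these 22.2% of the bins over 2 kb had no value in the deposited tables, against 11.9% in the other members of the class. The bins without a value were the same ones in all complete tables.

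PTPRU, with 82.8% GC, had a D of -4.74, -5.11, -5.16 and -4.89 in the untreated, 20, 40 and 60 min light tables and of -5.38, -5.24, -5.41 and -5.33 in the heavy tables. It had no fragment in the window in any of the 8 tables, beside 824 fragments over its 2 kb in the untreated light table. CLEC4C, a lectin of plasmacytoid dendritic cells with 47.2% GC, likewise had no fragment in the window in the 7 tables that hold it, and its D lay between -4.90 and -4.66. Its +1 window held 3.09 rpm in the untreated light table and 5.10 rpm in the untreated heavy table, so the emptiness was local. ARFGEF2, an exchange factor of Golgi trafficking with 75.2% GC, had the lowest D of all (-5.11 in the untreated light table) between a -1 window of 5.82 rpm and a +1 window of 0.29 rpm.

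The members below 65% GC differed from non-members of the same GC class in the motifs from -100 to +49 bp. CCGGAAG, the ETS core, was present in 20.3% of members and 5.07% of non-members (7.84% of all evaluated promoters of the class), GGGCGG in 41.2% and 15.6% (20.3% of all), and CCAAT in 31.9% and 23.8% (25.3% of all). The site of the activator NRF1, GCGCATGCG, was present in 4.91% and 0.60% (1.38% of all), AAGATGGCG, a form of the YY1 site, in 4.62% and 0.64% (1.36% of all), and TGACGTCA in 2.78% and 0.95% (1.28% of all). TCTCGCGAG, part of a palindrome of housekeeping promoters, was present in 1.51% and 0.38% (0.58% of all), and a run of 10 A in 4.01% and 2.05% (2.40% of all). TATAAA, the TATA box, went the other way, with 5.85% of members and 9.76% of non-members (9.05% of all). Over all GC classes the shares were, in the same order, 9.23%, 42.3%, 22.6%, 1.80%, 1.49%, 1.74%, 0.70%, 1.46% and 5.95% of evaluated promoters. All 9 were searched on both strands, and GC content still differed within the class (median 60.0% in members and 52.8% in non-members), and its part in the difference was not tested.

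Members more often had a TSS on the opposite strand within 1000 bp upstream, the layout of a bidirectional promoter: 14.8% against 6.20% of non-members, and 21.2% against 5.04% below 65% GC. GENCODE lists a transcript start no more than 50 bp away for 84.7% of members and 77.3% of non-members. A second copy of the central 290 bp elsewhere in the genome was found for 0.78% of members and 0.76% of non-members.

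Gene lists described what the members encode, and the depth in the 60 min light table, which the rule did not use, is given for each list over all its evaluated promoters. Genes that every dividing cell uses had deeper troughs than the promoters as a whole. The median D in that table was -2.45 for chromatin remodelers and histone modifiers, -2.39 for mitochondrial ribosomal proteins, -2.36 for translation factors and tRNA synthetases, -2.35 for subunits of oxidative phosphorylation, -2.28 for the proteasome, -2.21 for the RNA polymerase II initiation machinery, -2.15 for DNA replication and cell cycle genes, -2.06 for splicing factors, -1.98 for chaperones and -1.89 for cytosolic ribosomal proteins, against -1.49 for all promoters. Over their promoters below 65% GC the medians were -1.28 for chaperones, -1.43 for the chromatin list and -1.71 to -2.33 for the others, against -0.56 for all promoters of that class.

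By the rule, 53 of 76 promoters of the initiation machinery were members, 52 of 79 splicing factors, 46 of 71 mitochondrial and 53 of 97 cytosolic ribosomal proteins, 51 of 80 translation factors, 52 of 85 replication and cell cycle genes, 49 of 82 subunits of oxidative phosphorylation, 27 of 47 proteasome subunits and 48 of 90 chaperones, where 41.1% of all promoters were. Below 65% GC, where 18.1% were members, the counts were 28 of 45, 29 of 53, 28 of 51, 42 of 82, 21 of 40, 26 of 50, 26 of 52, 15 of 31 and 19 of 48 in the same order. Chromatin remodelers and histone modifiers (41 of 67, but 8 of 27 below 65% GC) and ubiquitin ligases (97 of 197, and 25 of 98) had most of their members at 65% GC or more. The same held for the members as a whole, of which 2119 of 8213 lay below 65% GC. Zinc finger proteins lay near the background (215 of 518, and 71 of 321).

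Genes of other tissues were seldom members. Olfactory receptors had 28 members of 355 (7.89%) and a median D of -0.38 in the 60 min light table. Their median GC content was 39.7%. Of all promoters below 45% GC 7.95% were members, so their share was that of promoters of like GC content. Keratins and keratin-associated proteins had 3 of 143 and a median D of 0.53. Their median GC content was 50.3%, and 9.71% of all promoters from 45 to 55% GC were members. Developmental homeobox genes had 23 of 82, but only 4 of 52 below 65% GC, where their median D was -0.25. Histone genes, many of them in clusters, are a separate case. They had 15 of 75, and 13 of 70 (18.6%) below 65% GC, near the 18.1% of all promoters of that class. The 28 olfactory receptors are of low GC content, among them OR51T1 with 26.9% GC and a D of -3.24, -3.77 and -3.30 in the untreated, 40 and 60 min light tables.

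The genes of the B cell and of its response to bacteria were mixed. Of all promoters 41.1% were members, and of those below 65% GC 18.1%. B cell identity genes had 10 members of 41 (7 of 31 below 65% GC), NF-kB subunits and targets 10 of 27 (2 of 15), Toll-like receptor signaling 13 of 27 (2 of 14), interferon-stimulated genes 11 of 48 (8 of 42) and immediate early genes 14 of 28 (3 of 9). Most members of the NF-kB, Toll-like receptor and immediate early lists were thus of 65% GC or more. So were most members as a whole, of which 2119 of 8213 lay below 65% GC. Such members of these lists include NFKBIA, the NF-kB inhibitor (66.9% GC), TNFAIP3, an inhibitor of NF-kB signaling (74.5%), and CD83 (81.0%). Members of the B cell and interferon lists were mostly below 65% GC, where their shares (7 of 31 and 8 of 42) lay near that of all promoters. Over all evaluated promoters of the lists the median D in the 60 min light table was -1.34, -0.97, -1.74, -1.18 and -1.99 in the same order. It was -1.49 for all promoters. Below 65% GC the medians were -0.45 for the NF-kB list and -1.11 to -1.32 for the others, against -0.56 for all promoters of that class.

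**Figure D3:**
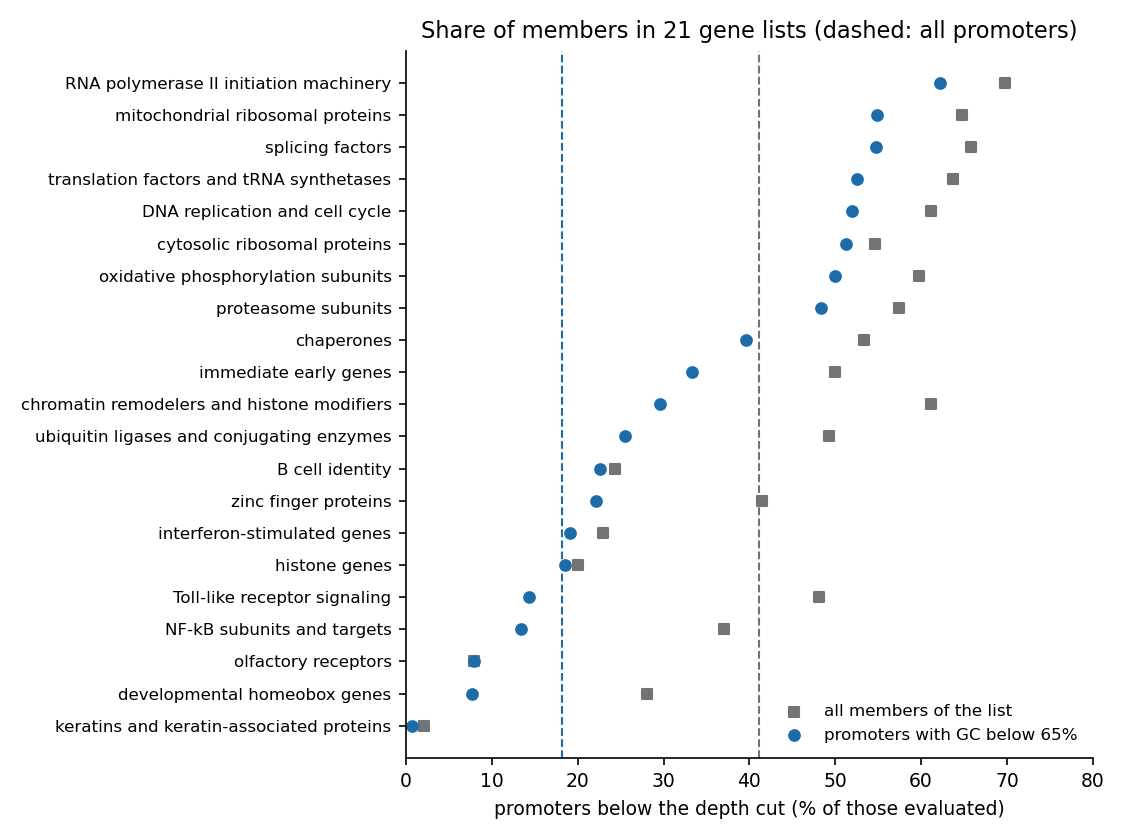
Share of evaluated promoters that are members (percent) in 21 gene lists, over all promoters of a list (squares) and over those below 65% GC (circles), with dashed lines at the shares of all promoters, 41.1% and 18.1%. The 8 housekeeping lists other than chaperones (39.6%) and chromatin remodelers (29.6%) stand at 48.4% to 62.2% below 65% GC, and olfactory receptors stand at 7.91%, homeobox genes at 7.69% and keratins at 0.72%.

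Among the housekeeping members, RPL41 (52.1% GC) had a D of -2.74, -3.67 and -2.92 in the untreated, 40 and 60 min light tables and of -3.04, -2.27, -3.30 and -2.66 in the untreated, 20, 40 and 60 min heavy tables. SNRPA (59.7% GC), which has a TSS on the other strand close by, had -3.86, -3.59 and -3.63 in the light tables and -3.0, -2.47 and -3.23 in the untreated, 40 and 60 min heavy tables. ZNF586 (59.0% GC), of the zinc finger list and not a housekeeping list, had -3.21, -3.83 and -3.56 in the light tables and -3.76, -3.68 and -3.91 in the same heavy tables. All values of these members lay below -2.

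The values differ between tables by up to 1.40 within a promoter (RPL41), and few fragments stand behind them: RPL41 had 4.30, 0.90 and 4.30 fragments in the window in the light tables and at most 1.3 in the heavy ones, where a fragment at an edge counts in part. Other members with a D below -2 in every table that holds them were CDK2, the cell cycle kinase, between -3.91 and -3.18, MED28, a Mediator subunit, between -4.29 and -3.19, POLR2F, a subunit of the RNA polymerases, between -4.57 and -3.24, ORC6 of the origin recognition complex, between -4.24 and -3.67, and PSMB3 of the proteasome, between -3.78 and -2.94. NDUFA6 of complex I lay between -3.95 and -3.30.

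MRPL46 and MRPS11, 2 proteins of the mitochondrial ribosome, are divided by a shared promoter on chromosome 15 and read the same window from opposite sides. Their D was -3.22 and -3.22 in the untreated light table and -3.68 and -3.67 at 60 min. They are 1 trough and not 2 observations.

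Among the immune members, HLA-DPB1 (42.1% GC) had a D of -3.26, -3.35 and -3.53 in the untreated, 40 and 60 min light tables and of -3.09, -2.96 and -3.76 in the heavy tables of the same times. Its +1 window held 5.17, 4.74 and 4.02 rpm in those light tables, beside a region of 2.0 to 2.2 rpm. CD40, a costimulatory receptor of B cells (64.8% GC), had -3.52, -2.65 and -2.95 in the light and -3.22, -3.35 and -2.5 in the heavy tables. Both were below -2 in every table that holds them.

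IRAK4, the kinase downstream of Toll-like receptors (64.5% GC), had -3.98, -3.48 and -3.27 in the light tables and -3.78, -3.47, -3.43 and -3.67 in the 4 heavy tables. FOS (64.8% GC) had -2.78, -3.0 and -3.70 in the light tables and -4.01, -3.05, -3.87 and -3.66 in the heavy tables. CCL5, a chemokine (53.1% GC), had -2.74, -3.04 and -2.85 in the light tables, but -1.89, -1.81, -0.43 and -2.18 in the heavy tables. It is thus a member in the light digest that 3 of 4 heavy tables do not place below -2, although 5.10 fragments at most lay in its window in a heavy table.

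**Figure D4:**
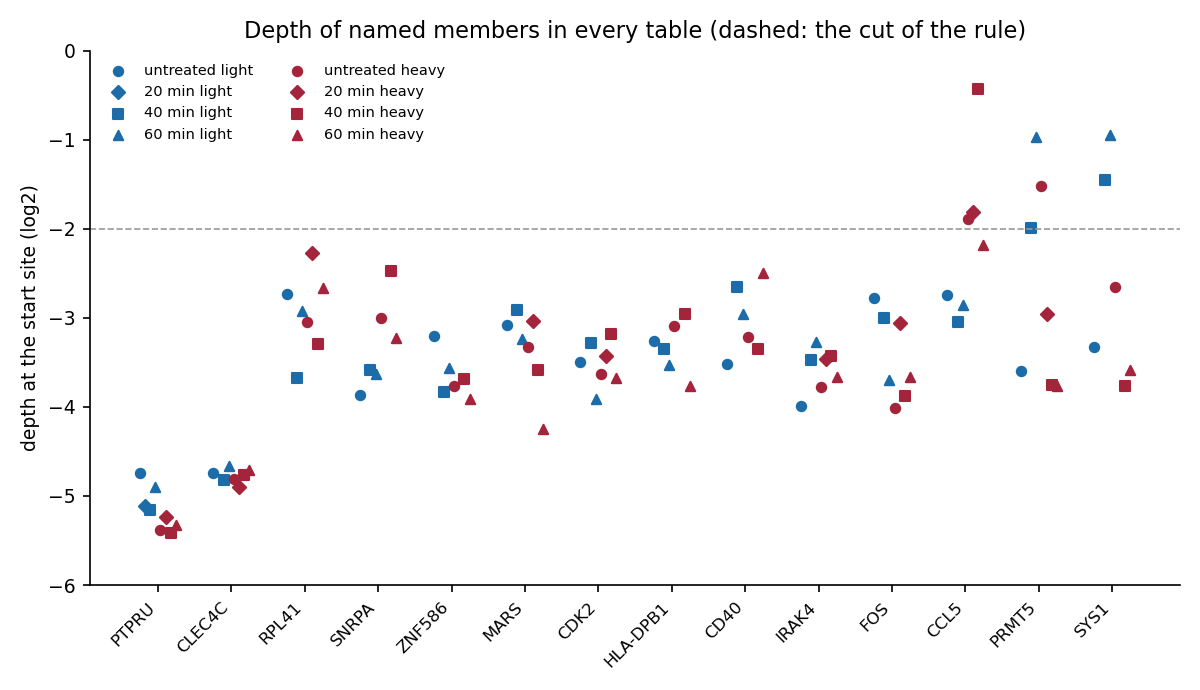
Depth at the TSS (log2) of 14 named members in each table that holds them, light tables in blue and heavy tables in red, with symbols for the time of HKST and a dashed line at -2, the cut applied in the untreated light table. PTPRU and CLEC4C lie near -5 throughout, CCL5 rises above the line in 3 heavy tables, and PRMT5 and SYS1 rise above it in light tables after HKST.

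The change of depth with HKST was read first in the heavy digest. Neither the untreated heavy table nor the HKST heavy tables had chosen the members, and the median change of D from untreated was -0.020 at 20 min (2871 members), -0.048 at 40 min and -0.019 at 60 min (6887 members), against -0.090, -0.047 and -0.078 for non-members. Where the window holds no fragment D is at its floor and can hardly fall, as at 44.4% to 56.1% of members in the heavy tables (26.6% to 47.1% below 65% GC, 71.2% to 77.6% of the GC-rich). At members below 65% GC the median change was -0.17, -0.13 and -0.11, and 17.1%, 17.2% and 14.3% of them fell by more than 1 while 6.05%, 9.32% and 5.36% rose by more than 1. Non-members of this class changed by -0.063, -0.043 and -0.058. Falls by more than 1 also outnumbered rises there, at 8.52%, 8.38% and 4.76% against 5.24%, 4.48% and 3.68%. In the light digest the members' change was 0.077, 0.077 and 0.095, but the untreated light table had chosen the members for a low value, so a rise is built into this comparison. Between 40 and 60 min, 2 light tables that the rule did not use, the median change was 0.0033 (quartiles -0.32 and 0.28).

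Counting intervals of 95% were calculated for the share of a promoter's fragments that lay in the window. In the heavy digest the interval of the change excluded 0 upward at 2 members at 60 min (background 0.716%) and downward at 31 of 3796 (0.82%, background 1.94%), and at 40 min at 11 upward (background 0.841%) and 4 downward (background 0.806%) of 3511. In the light digest 141 of 5650 were higher at 40 min (2.50%, background 1.92%) and 2 lower (background 1.12%), and at 60 min 123 of 5575 were higher (2.21%, background 1.58%) and 4 lower (background 1.84%). At both times 32 members were higher and none was lower, in the direction that the choice of the members favors. A background share for both times together is not given.

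Among these 32 members the largest mean changes of the share were those of UGGT1, SYS1, PRMT5, EID2B and HNRNPL. Their untreated light values had entered the rule, so a rise from them is favored in advance and is given as a description. UGGT1, which checks glycoprotein folding, had a D of -3.53, -1.05 and -1.11 in the untreated, 40 and 60 min light tables, and 0, 9.70 and 13 fragments in the window. In the heavy tables of the same times it had -1.44, -1.54 and -2.0. The untreated light value was the lowest of its 6 tables.

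PRMT5, an arginine methyltransferase, had a D of -3.60, -2.0 and -0.97 in these light tables with 1.10, 7.90 and 19.7 fragments, and of -1.52, -2.95, -3.76 and -3.76 in the 4 heavy tables. SYS1, a Golgi protein, had -3.33, -1.46 and -0.94 in the light tables with 0.90, 11.1 and 15.9 fragments, and -2.65, -3.77 and -3.58 in the untreated, 40 and 60 min heavy tables. At PRMT5 and SYS1 D was higher in the light and lower in the heavy digest after HKST. The light rise starts from a value that the rule chose for being low. Few fragments stand behind heavy values: the median member had 0.25, 0 and 0.17 in this window in the untreated, 40 and 60 min heavy tables. HNRNPL, an RNA-binding protein, had -3.06, -1.03 and -1.08 in the light tables and -1.04 and -1.89 in the 40 and 60 min heavy tables. EID2B had -3.77, -1.77 and -1.53 in the light tables and -2.22, -2.63 and -2.84 in the untreated, 40 and 60 min heavy tables.

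The nucleosome upstream of the trough was described by the log2 ratio of light over heavy signal from -290 to -130 bp, where the members' -1 peak lies and which is outside the window of the rule, although its untreated light signal enters the regional mean that the rule divides by. With 0.1 rpm added to both, a value of 0 means an equal signal in the 2 tables or no fragment in either. Windows with few fragments are drawn toward 0. In untreated cells the median was 0.67 over the 1692 members below 65% GC (quartiles 0.16 and 1.18), 0.11 over 2995 members of 65 to 75% and -0.056 over 2171 GC-rich members. Non-members below 65% GC had a median of 0.29. When members were instead chosen by the rule in the 40 min light table, which leaves the untreated tables unused, the untreated medians below 65% GC were 0.66 (1481 promoters) and 0.31 for the others. At finer steps of GC content the untreated median of members exceeded that of non-members from 45% to 75% GC: 0.75 and 0.33 from 45 to 55%, 0.69 and 0.051 from 55 to 60%, 0.62 and -0.081 from 60 to 65%, 0.31 and -0.15 from 65 to 70%, and 0 and -0.25 from 70 to 75%. Below 45% GC they were 0.86 and 0.75.

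After HKST the ratio at members below 65% GC was higher at every time point. The median was 1.10 after 20 min (307 members) and 0.83 and 0.96 after 40 and 60 min (2078 members). The share above 1 was 32.7% in untreated cells (1692 members) and 53.7%, 43.1% and 48.2% after 20, 40 and 60 min. Among non-members of this class it was 20.2%, and 20.9%, 21.1% and 20.5% after HKST. These medians and shares rest on different sets of promoters, because some tables end early. Measured within promoters, the median change was 0.33 at 20 min (307 members, 214 higher and 93 lower), 0.20 at 40 min and 0.32 at 60 min (1692 members, 1132 higher and 542 lower). Non-members of this class changed by -0.072, 0 and -0.032. Members of 65 to 75% GC changed by 0.26, 0.15 and 0.15, and non-members of this GC content by 0.20, 0.17 and 0.052. GC-rich members changed by 0.026, 0.042 and 0, with 1044 higher and 852 lower of 2171 at 60 min. Their untreated window held a median of 4.83 light and 3.75 heavy fragments, so values near 0 there do not show an equal signal or a lack of change.

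Taken as a class, members below 65% GC thus had a higher ratio after HKST and non-members did not, while from 65 to 75% GC both were higher. Within the class there were exceptions. Members below 45% GC changed by -0.65 at 20 min (12 members), -0.064 at 40 min and 0.13 at 60 min (87 members), and non-members from 60 to 65% GC changed by 0.095, 0.086 and 0.022, beside 0.32, 0.21 and 0.29 for members of that GC content. Because the same untreated tables are the reference at every time point, the 3 changes are not independent of each other. A choice of members that does not use the untreated tables gave a like value: the promoters below 65% GC that met the rule in the 40 min light table changed by 0.33 at 20 min and 0.30 at 60 min, against -0.047 and -0.022 for the others. Over all GC classes the members' median change was 0.24 at 20 min (1126 members), 0.13 at 40 min and 0.14 at 60 min, against -0.016, 0.028 and -0.0046 for non-members.

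**Figure D5:**
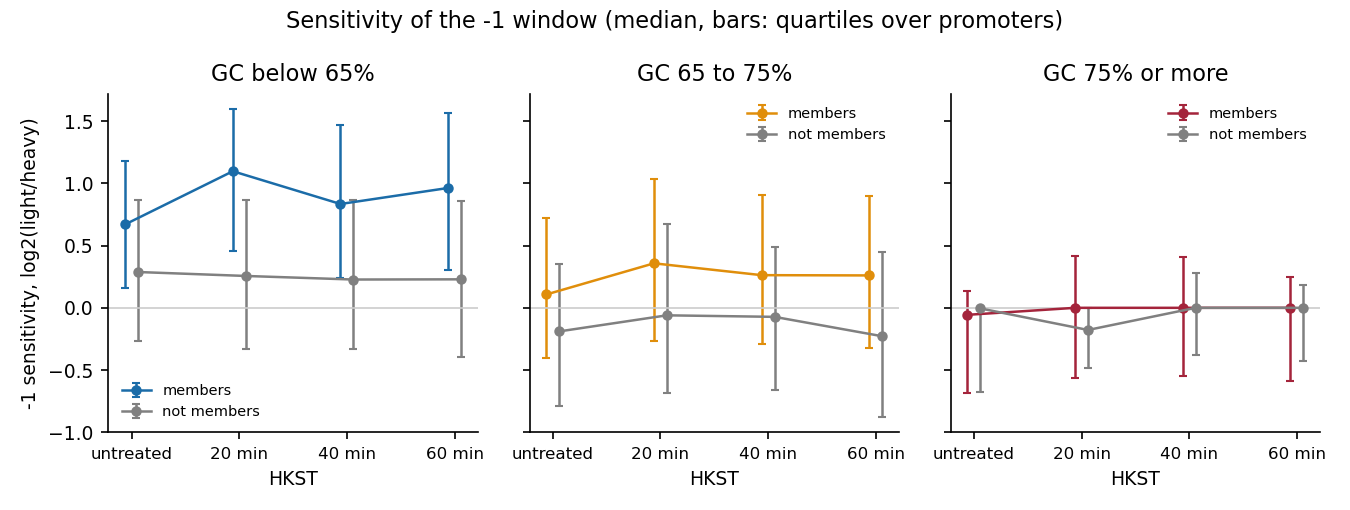
Median log2 ratio of light over heavy signal in the -1 window (-290 to -130 bp) in untreated cells and after 20, 40 and 60 min of HKST, for members and non-members in 3 GC classes, with bars for the quartiles over promoters and not for replicates. Members below 65% GC stand at 0.67 untreated (1692 members), 1.10 at 20 min (307 members) and 0.83 and 0.96 at 40 and 60 min (2078 members).

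The +1 window, from 70 to 230 bp, had a lower ratio than the -1 window. At members below 65% GC its median was 0.16 without HKST (1710 members), 0.57 after 20 min (311 members) and 0.33 after 40 and 60 min (2107 members). Within promoters the median change was 0.34, 0.17 and 0.17. Non-members of this class changed by -0.034, 0.027 and -0.11. At 20 min the changes of the -1 and +1 windows were thus of equal size, and at 60 min that of the -1 window was larger. Promoters of the 20 min comparison lie on 3 chromosomes, those that the truncated table reaches.

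At single promoters the depth allowed few calls. The exact counting interval of the change in -1 ratio excluded 0 upward at 43 of 907 members at 20 min (4.74%, background 3.07%), at 155 of 5386 at 40 min (2.88%, background 2.32%) and at 218 of 5496 at 60 min (3.97%, background 2.82%). It excluded 0 downward at 8 (0.88%, background 2%), 58 (1.08%, background 1.46%) and 51 (0.93%, background 2.24%). Among members below 65% GC at 60 min 78 were higher and 7 lower of 1561. Among non-members of this class 115 were higher and 215 lower of 5974.

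The largest rises past counting error at 60 min came with a gain in the light digest and a loss in the heavy digest. NUMA1, of the mitotic spindle, had a -1 window of 0.12, 0.51 and 0.61 rpm in the untreated, 40 and 60 min light tables and of 0.20, 0.11 and 0 rpm in the heavy tables of these times, a change of 3.29 (lower limit 0.95). GNPTAB, a Golgi phosphotransferase, had 0.076, 0.25 and 0.43 rpm in the light and 0.21, 0 and 0 rpm in the heavy tables, a change of 3.21 (lower limit 0.78). MKL1, a coactivator of serum response factor, had 0.26, 0.18 and 0.42 rpm and 0.47, 0 and 0 rpm, a change of 3.06 (lower limit 1.19). At each of these 3 members the light signal was higher at 60 min than untreated, and no heavy fragment was recorded in the window at 60 min. The untreated heavy values rest on few fragments: the median member had 0.55 rpm and 7.42 fragments in this window in that table. IFT122, of intraflagellar transport, went from 0.24 to 0.57 rpm in the light and from 0.66 to 0.084 rpm in the heavy tables between untreated and 60 min.

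The largest falls were those of SCAMP2, FKBP5, ADA and CALU. SCAMP2, a secretory carrier protein, had 0.57, 0.50 and 0.12 rpm in the untreated, 40 and 60 min light tables and 0.054, 0.19 and 0.63 rpm in the heavy tables, a change of -3.85 (upper limit -0.94). FKBP5, an immunophilin that binds steroid receptor complexes, had 0.60, 0.64 and 0.25 rpm and 0.00575, 0 and 0.24 rpm, a change of -2.72 (upper limit -0.31). In these the light signal fell and the heavy signal rose, but the untreated heavy values of 0.054 and 0.00575 rpm are each less than a whole fragment. Intervals and limits here cover counting error only, and because PCR copies are not independent molecules the true error is larger.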

How the data were processed

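MNase fragments of GM12878 were measured in 16 samples. The authors clipped adapters, aligned read pairs to hg19, kept unique alignments, counted fragment centers (140 to 200 bp) in 60 bp windows every 10 bp and deposited 8 tables in rpm, each pooling both replicates (Bowtie2 2.2.2, SAMtools and bedtools per the submitters' processing notes). The smallest value above 0 in each table was taken as 0.5 times the value of a fragment, and fragment numbers were recovered on this basis. Of the deposited rpm values other than the highest, 100% lay within 0.05 of a whole multiple of that smallest value. This does not show whether the smallest value is 0.5 or a whole fragment, so fragment numbers and counting intervals depend on this choice. A fragment enters 6 windows. A final partial line of 3 tables was left out, as were bins without a value (10.8% of the complete tables).

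The rule was applied to the untreated light table. The self-test used simulated fragments. Single promoters had exact 95% counting intervals (10 or more fragments for the -1 ratio), which cover counting error only, and 3 fragments in the window of the rule are worth 0.12 to 0.37 rpm. GC content, GENCODE starts and motifs came from GRCh37, and copies (98% identity over 90% of the 290 bp) from minimap2 2.31. Python 3.11.15, numpy 2.4.6, pandas 2.3.3, scipy 1.17.1 and matplotlib 3.10.9 were used.

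The members, the 21 lists and the naming rule were chosen with earlier results of these data known. Genes named are the members with the lowest D, up to 3 per list by their depth at 40 and 60 min, and those with the largest changes past counting error. GC classes, motifs, the copy filter and further members below 65% GC were added after the data were seen. Some promoter sequences are not reported here.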

Additional observations from a re-analysis of the deposited data

How the results depend on the processing

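Against the values of the report (8213 members, a median D of -2.93 in the 60 min light and -3.02 in the untreated heavy table, a heavy change of -0.019 at 60 min, and a -1 ratio of 0.085 with a change of 0.14), 35 of 92 recalculations stayed within the 95% interval of the median over promoters, or within 1.5 times the count, 55 moved further and 2 changed sign. With a pseudocount of 0.02 rpm the values were -3.82, -4.38, -0.047, 0.12 and 0.16. With 0.5 rpm 631 members were left, with -2.08, -1.98, 0.19 for the -1 ratio and 0.11 for its change, because the pseudocount sets the floor of D. With the window at -80 to +20 bp they were -2.99, -3.10 and -0.0010, and at -150 to +50 bp -2.78, -2.88, -0.040 and a -1 ratio of 0.0043. A minimum mean of 0.25 rpm gave a D of -2.88 (60 min light) and a -1 ratio of 0.055, and one of 1 rpm gave 5126 members with -3.04, -3.13, -0.042, 0.26 and 0.18. A cut at -1.5 gave -2.74, -2.86 and -0.032, and one at -2.5 gave -3.09, -3.18, -0.0021, 0.040 and 0.11. Promoters with a value in every bin left 166 members with -2.95, -3.11, -0.050, 0 and 0.23. The rule in the 40 min light table gave -2.96, -3.06 and a -1 ratio of 0.055, and in the 60 min light table, where the rule then used that value, -2.96. The -1 window at -200 to 0 bp gave a ratio of 0 and a change of 0.20.

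The GC classes were added after the data were seen. The 2119 members below 65% GC had -2.47, -2.71, -0.11, 0.67 and 0.32, and the 2566 GC-rich members -3.23, -3.35, 0.037, -0.056 and 0. The heavy change and the untreated -1 ratio thus changed sign in the GC-rich class, and the median change of the -1 ratio was 0 there, with 1044 members higher and 852 lower and a median of 4.83 light and 3.75 heavy fragments in the untreated window. One promoter per gene and a single copy in the genome left all values in place. The depth stayed strongly negative and the change of the -1 ratio positive in every setting but the GC-rich class, and in none did the heavy change exceed 0.11 in size.

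No paired analysis was possible because each table pools both replicates, and no replicate was left out for the same reason. The depth limits single promoters: the median member had 15.3 light and 7.42 heavy fragments in the -1 window in untreated cells and 0.92 and 0.25 in the window of the rule.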
